A study of Mus musculus with 40 samples.

Results

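The AP-1 and immediate early genes described here are Fos, Fosb, Fosl1, Jun, Junb, Jund, Egr1, Atf3, Ier2 and Ier3. They were taken by symbol, and all 10 had a row among the 24499 genes of the count table and among the 17280 genes with a length-normalised level. They were followed in 40 single cells taken from female mouse blastocysts of a natural cross, without embryo culture before isolation, in which mothers were C57BL/6J and fathers were CAST/EiJ. The cells fall into 3 trophectoderm (TE) cells of E3.5 from 3 embryos, 10 epiblast (Epi) cells of E4.0 from 2 embryos, 13 primitive endoderm (PrE) cells of E4.0 from 3 embryos and 14 inner cell mass (ICM) cells of E3.5 from 7 embryos. The class of each cell is the one listed in the supplementary data of the study, as the sample labels give the stage alone. Embryo 4 gave a TE and an ICM cell, and embryo 14 gave 9 of the Epi cells and 7 of the PrE cells. An earlier study had made the libraries of every TE cell and of 3 ICM cells (embryos 4, 8 and 12).

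AP-1 is a transcription factor built of a pair of proteins, in which a FOS family protein or another partner joins a JUN family protein. FOS proteins cannot pair with themselves, whereas JUN proteins can. Genes of this kind are called immediate early because growth factors, through ERK signalling, and stress, through JNK and p38, switch them on within minutes and without new protein synthesis. AP-1 is known for its use in epithelia and in the trophoblast lineage of the placenta. The same genes are also known to be switched on by the handling and enzymatic dissociation of cells.

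For the inner cells of both stages that the present study made (all Epi and PrE cells and 11 of 14 ICM cells), the protocol removed the zona with acid, killed the outer cells with antiserum and complement (immunosurgery), and separated the remaining cells with TrypLE and a mouth pipette. How the cells of the earlier study, 3 TE and 3 ICM cells, were isolated is not given in the sources used here. Of its ICM cells, those of embryos 8 and 12 come from embryos that also gave cells of the present study. All TE cells come from the earlier study, so that class and isolation cannot be told apart for them. A comparison with its 3 ICM cells, given beside the Fos result, holds the study constant. It may not hold the isolation constant, as immunosurgery kills the outer cells. P-values measure the spread between sums of the cells of a class within an embryo, of which Epi has only 2. Each TE sum is 1 cell, so for TE the spread between embryos and that between cells cannot be told apart. ICM embryos 4, 11 and 13 and Epi embryo 17 also gave 1 cell each.

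Each cell held between 1019112 and 12833051 counts over 6245 to 11757 genes. The paper classed the cells by stage and by the expression of pluripotency and lineage factors in these same data. Levels of such markers thus describe the classes and are no independent check. Cdx2 was at 34.1 to 100 RPRT in TE cells and at most 0.314 RPRT in Epi and PrE cells. Sox2 was at 67.1 to 416 RPRT in Epi cells and up to 232 RPRT in ICM cells. Gata4 was at 86 to 368 RPRT in PrE cells and up to 118 RPRT in ICM cells. RPRT is the authors' level, for which they normalized the read count to the retrotranscribed length of the transcript and to the mapped reads. It did not keep a fixed ratio to the counts of a gene. Jund was at 3.85 RPRT in the ICM cell of embryo 13, with 118 of its 10647574 counts. It was at 13.6 RPRT in the TE cell of embryo 5, with 34 of 5687876 counts. RPRT and counts can thus rank cells differently, and the cause was not tested. Orders of cells given in RPRT hold for that measure. The summed level of 23 trophectoderm markers was 12300 to 15900 RPRT in TE cells, 103 to 520 RPRT in Epi cells, 71.6 to 336 RPRT in PrE cells and 184 to 3180 RPRT in ICM cells, and each of the 23 had a signal in at least 1 ICM cell. Cdx2 was above 1 RPRT in 4 of 14 ICM cells, up to 27.5 RPRT. The 5 ICM cells with the highest sums, between 1010 and 3180 RPRT, were all the cells of embryos 4, 12 and 13. The summed level of 18 epiblast and ICM markers was 2970, 8670 and 3520 RPRT in the TE cells of embryos 2, 4 and 5, 6080 to 9200 RPRT in Epi cells, 1470 to 5720 RPRT in PrE cells and 2760 to 8250 RPRT in ICM cells. The TE cell of embryo 4, which held the highest Fos, Jun and Ier2 levels of all cells, thus lay above every ICM cell and within the Epi range for this sum, and the part of these markers in its levels was not tested. In TE cells Nanog, Sox2 and Esrrb were at most 11.3, 11.6 and 1 RPRT. In Epi cells they were at least 83.6, 67.1 and 113 RPRT, so other markers of the list made up this sum in the TE cell. TE over ICM was therefore refitted for the members without ICM embryos 4, 12 and 13, and the gene lists were not refitted.

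Before the levels, the sequences near the start of the genes are shown, because the FOS and JUN families are known to be switched on through such sites and to feed back on them. RefSeq promoter windows of GRCm38.p6, from 250 bases before to 50 bases after the start, were matched for 7 of the 10 genes (Fos, Fosb, Jun, Junb, Jund, Atf3 and Ier3). The capitals mark a match to TGACGT, the core of the cyclic AMP response element, for Fos and, on the opposite strand, for Atf3, and a match to TGACATCA, the form of the AP-1 site known from the Jun promoter, for Jun.
Fos, chr12:85473814-85473839, plus strand: ttccgcccagTGACGTaggaagtcca
Atf3, chr1:191183326-191183351, minus strand: taatagcattACGTCAgcctgggatt
Jun, chr4:95052251-95052276, minus strand: gcctcggggTGACATCAtgggctatt
The Fos match began 66 bases before the start, the Atf3 match 8 bases before it and the Jun match 45 bases before it. On both strands, TGACGT was found in 7.51% of all 32851 windows and TGACATCA in 3.62% of them. The full element TGACGTCA, which contains TGACGT, occurred in 1.79% of all windows and in no window of the 7 genes. The AP-1 site TGACTCA occurred in 5.20% of all windows and the CArG box, the site of serum response factor, in 1.63%, and neither was in any of the 7 windows. A match or its absence describes the letters of this window only, and sites more than 250 bases before the start were not searched. For Jund and Atf3 the RefSeq start lies apart from the gene start in the annotation used for positions. The Jund window, chr8:70697489-70697788, ends before that start at 70698949, and the Atf3 window, chr1:191183284-191183583, lies within the annotated gene, whose start on the minus strand is at 191218039.

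Fos (GRCm38 chr12:85473890-85477273, plus strand), the best known partner of JUN proteins in AP-1, was the member with the clearest class pattern. Its level was 15.5 RPRT in the TE cell of embryo 2, 700 RPRT in that of embryo 4 and 458 RPRT in that of embryo 5. It was at 0 in all 10 Epi cells, which allows a share of cells with a read of up to 30% if cells are taken as independent, although 9 of them share embryo 14, and the summed Epi counts held no Fos read. In PrE cells the lowest, median and highest levels were 0, 0 and 5.67 RPRT, and 2 cells of 13 were above 1 RPRT. For the ICM they were 0, 0.361 and 84.1 RPRT, and 6 cells of 14 were above 1 RPRT. Every TE cell lay above every Epi and PrE cell, whereas the TE cell of embryo 2 lay within the range of the ICM cells.

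**Figure D1:**
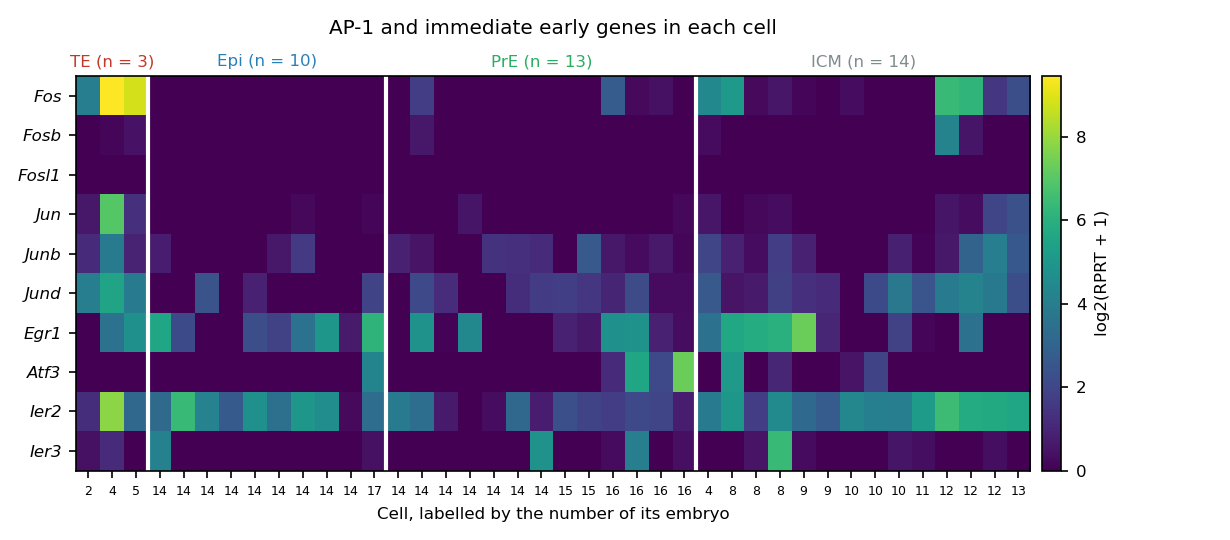
Level of the 10 genes in each of the 40 cells, as log2(RPRT + 1), with cells in columns by class and embryo number and genes in rows. Fos is bright in TE cells of embryos 4 and 5, where it was at 700 and 458 RPRT, dark in all Epi cells, and intermediate in ICM cells of embryos 4, 8 and 12. Egr1, Atf3 and Ier3 are bright in scattered cells.

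The high Fos cells of the ICM came from few embryos. Of the cells of embryo 12, 2 were at 84.1 and 71.6 RPRT and the other at 1.8 RPRT. A cell of embryo 8 was at 33.2 RPRT while its 2 neighbours were at 0.172 and 0.493 RPRT, and the cell of embryo 4 was at 20.1 RPRT. The cell of embryo 13 was at 3.8 RPRT, and the other ICM cells, of embryos 9, 10 and 11, were at most 0.229 RPRT. Cells of the same embryo thus differed, with 763 Fos reads in the high cell of embryo 8 and far fewer in its neighbours.

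Over embryos, Fos averaged 1100 ± 932 CPM in TE (SD, n = 3) and 17 ± 21.6 CPM in ICM (SD, n = 7), where CPM is the count summed per embryo and class, relative to the TMM-scaled library size. The log2 fold change of TE over ICM was 6.02 ± 1.52 (SE; edgeR quasi-likelihood test with Benjamini-Hochberg adjustment, adjusted p = 0.037), so Fos was higher in TE. The median of all 12599 genes tested was −0.70 on this scale, and −1.09, −0.17 and 0.07 with total count scaling, relative log expression scaling and DESeq2. Of the 8 members that passed the filter on low counts, Fos was the only one called in this comparison, where 533 genes or 4.23% of those tested were called, 2.10% of those tested being higher in TE. Fosb and Fosl1 did not pass the filter. The comparisons of TE, Epi and PrE with ICM share the ICM cells. The adjusted p was 0.101 without the TE cell of embryo 5, and 0.0611, 0.0529 and 0.057 without ICM embryos 8, 10 and 13, with log2 fold changes between 5.62 and 6.82 over the 10 sums of class and embryo left out in turn, and it was 0.0498 at a log2 fold change of 5.62 without the TE cell of embryo 4. It was also past 0.05 with total count scaling (edgeR, log2 fold change 5.38, adjusted p = 0.054) and with only TE and ICM in the fit (5.97, adjusted p = 0.051), and between 0.000251 and 0.0452 with DESeq2, limma and the other alternatives on all cells. Without ICM embryos 4, 12 and 13 together, the log2 fold change was 7.88 (edgeR, adjusted p = 0.0383).

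Within the cells of the earlier study alone, 3 TE against 3 ICM cells, Fos was at 15.5, 700 and 458 RPRT in TE and at 20.1, 0.493 and 71.6 RPRT in ICM. The groups overlapped through the TE cell of embryo 2, and the log2 fold change was 4.72 (edgeR, adjusted p = 0.22). Embryo 4 allows a comparison within a single embryo. Its TE cell held 11980 Fos reads and 700 RPRT, and its ICM cell held 319 Fos reads and 20.1 RPRT. With 1 cell of each, this difference has no replicate check.

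TE was also set against both E4.0 classes, a comparison chosen after the data were seen. Fos was higher in TE than in Epi, with a level at least 24400-fold higher against a floor of 3 counts over all Epi cells (edgeR, adjusted p = 0.0407). Without the TE cell of embryo 4 this bound was 13500-fold, and without Epi embryo 14 it was 2520-fold. In this comparison 214 genes or 1.70% were called and 0.548% of those tested were higher in TE. Fos was higher in TE than in PrE by a log2 fold change of 10.53 ± 2.65 (SE; edgeR, adjusted p = 0.0407), where 291 genes or 2.31% were called and 0.802% were higher in TE. In both comparisons, which share the TE cells with the one above, Fos was again the only member called. Jun, at a log2 fold change of 11.74 ± 3.23 (edgeR, adjusted p = 0.0576), and Ier2, at 5.02 ± 1.54 (adjusted p = 0.079), missed the threshold for TE over PrE in edgeR, whereas DESeq2 called Jun (12.26, adjusted p = 4.6e-06). Stage differs from class here, E3.5 against E4.0, and cannot be told apart from it. Against Epi the adjusted p was 0.0664 without TE embryo 5, 0.216 without either Epi embryo and 0.0708 with relative log expression scaling. Against PrE it was 0.0771 without TE embryo 5 and 0.133, 0.115 and 0.0852 without PrE embryos 14, 15 and 16.

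**Figure D2:**
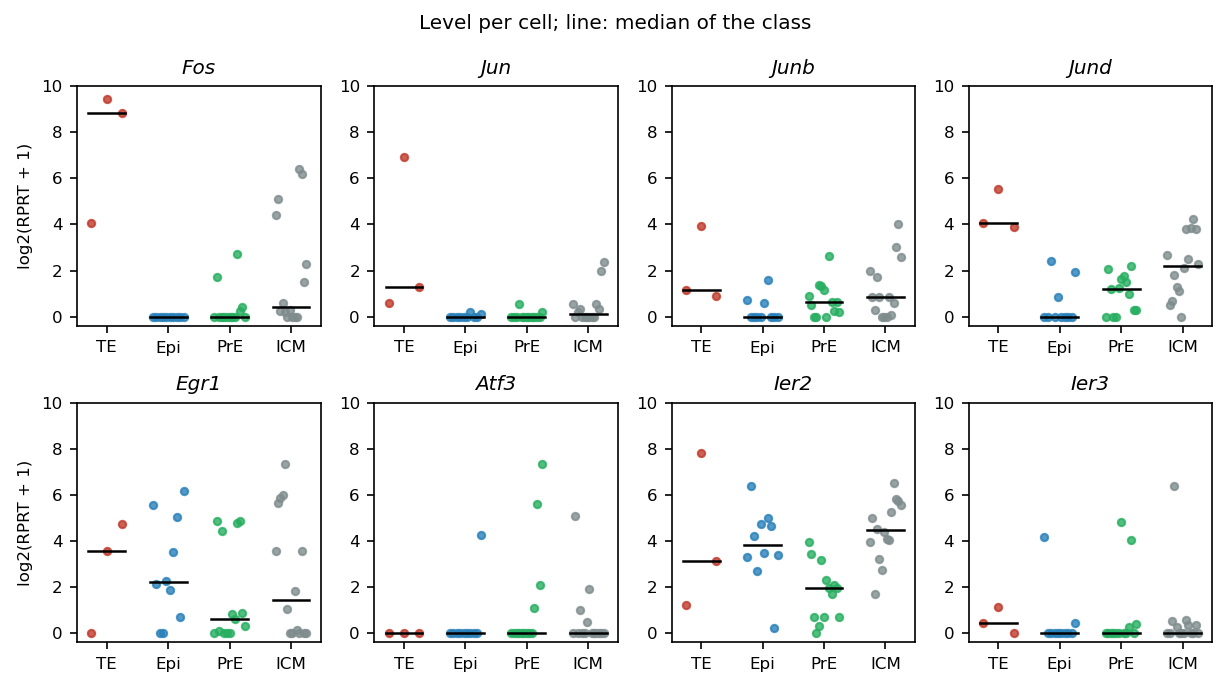
Level per cell of the 8 members that were tested, as log2(RPRT + 1), by class, with each point a cell and the line the median of the class. The 3 TE cells stand high for Fos and Jund, a single TE cell stands high for Jun, Junb and Ier2, and TE cells are all at 0 for Atf3.

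The other members of the FOS family were nearly silent. Fosb, which like Fos pairs with JUN proteins, was at 0, 0.11 and 0.382 RPRT in TE cells, at 0 in all Epi cells, at most 0.524 RPRT in PrE cells and at most 17.9 RPRT in ICM cells. Only 1 cell of 40, of ICM embryo 12, had Fosb above 1 RPRT, and this was the ICM cell with the highest Fos level in RPRT. Fosl1, which encodes FRA1 and is known for its part in the placenta, had no read in any cell, a level under the floor of 3 counts per class, or 0.156 CPM in TE and 0.0224 CPM in ICM. Fosl1 overlaps Ccdc85b on the opposite strand in the annotation, so that reads in the overlap may not have been counted, and the floor is not a firm bound on its level.

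Jun (chr4:95049034-95052222, minus strand), the founding member of the JUN family, was high in a single cell. Its level was 0.531 RPRT in the TE cell of embryo 2, 122 RPRT in that of embryo 4 and 1.44 RPRT in that of embryo 5. It was at most 0.139 RPRT in Epi cells and 0.462 RPRT in PrE cells, and between 0 and 4.12 RPRT in ICM cells with a median of 0.0704 RPRT. The highest ICM cells were of embryo 13, at 4.12 RPRT, and of embryo 12, at 2.89 RPRT. The log2 fold change of TE over ICM was 6.06 ± 1.77 (SE; edgeR, adjusted p = 0.0545), which missed the threshold, and without the TE cell of embryo 4 it was 0.88 (edgeR, adjusted p = 0.796). It passed the threshold without the TE cell of embryo 2, at 6.65 (edgeR, adjusted p = 0.0285), without ICM embryo 13, at 7.30 (adjusted p = 0.0445), and without ICM embryos 4, 12 and 13, at 10.84 (adjusted p = 0.0162). It also passed with relative log expression scaling, at 6.23 (edgeR, adjusted p = 0.0223), with no filter on low counts, at 6.06 (adjusted p = 0.0205), and with DESeq2, at 6.23 (adjusted p = 0.00296), but not with limma-voom, at 5.38 (adjusted p = 0.136).

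Junb, a weaker activator than Jun that often opposes it, was highest in the same TE cell as Jun. It was at 1.2, 14.3 and 0.852 RPRT in TE cells of embryos 2, 4 and 5, and its median was 0 RPRT in Epi, 0.535 RPRT in PrE and 0.806 RPRT in ICM cells. Its highest ICM cells were of embryo 12, at 15.4 and 7.11 RPRT, and of embryo 13, at 5.1 RPRT, so that TE and ICM overlapped. The log2 fold change of TE over ICM was 1.34 ± 1.68 (SE; edgeR, adjusted p = 0.626), without the TE cell of embryo 4 it was −1.96, and without ICM embryos 4, 12 and 13 it was 3.91 (adjusted p = 0.24). Junb overlaps Prdx2 on the opposite strand in the annotation, and it is not stated whether the counting used strand.

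Jund, the JUN family member that most cells make constitutively, was the only one of the family present in every TE cell at more than 10 RPRT. It was at 15.6, 45 and 13.6 RPRT in TE cells of embryos 2, 4 and 5. The lowest, median and highest levels were 0, 0 and 4.41 RPRT in Epi cells, 0, 1.29 and 3.62 RPRT in PrE cells and 0, 3.61 and 17.9 RPRT in ICM cells. In RPRT, all TE cells lay above all Epi and PrE cells and above the median of ICM cells. However, 1 cell of ICM embryo 12, at 17.9 RPRT, lay within the range of TE, and its neighbours were at 13.4 and 13 RPRT. In CPM per embryo the overlap was wider. TE was at 7.77, 44 and 10.2 CPM, and ICM embryos 12 and 13, at 8.95 and 11.6 CPM, lay within that range. The log2 fold change was 2.40 ± 1.33 for TE over ICM (SE; edgeR, adjusted p = 0.25), 5.07 ± 2.38 for TE over Epi (adjusted p = 0.22) and 4.73 ± 1.95 for TE over PrE (adjusted p = 0.165). None passed the threshold in edgeR, nor did TE over ICM without ICM embryos 4, 12 and 13, at 4.12 (edgeR, adjusted p = 0.164). DESeq2 called Jund higher in TE in all 3 comparisons, at 3.09 over ICM (adjusted p = 0.0218), 5.79 over Epi (adjusted p = 0.0012) and 5.53 over PrE (adjusted p = 0.000416).

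Egr1, a zinc finger factor induced by ERK signalling alongside Fos, was found in all 4 classes. It was at 0, 10.9 and 25.9 RPRT in TE cells of embryos 2, 4 and 5. The lowest, median and highest levels were 0, 3.61 and 70.1 RPRT in Epi cells, 0, 0.545 and 28.2 RPRT in PrE cells and 0, 1.79 and 161 RPRT in ICM cells. Its highest ICM cells came from embryos 8 and 9, at 48.3, 56.8, 62.4 and 161 RPRT, and among these only the first had Fos above 1 RPRT. Egr1 was above 1 RPRT in 2 of 3 TE, 7 of 10 Epi, 4 of 13 PrE and 8 of 14 ICM cells. The classes overlapped, and the log2 fold change of TE over ICM was −0.69 ± 1.85 (SE; edgeR, adjusted p = 0.834), and without ICM embryos 4, 12 and 13 it was −1.43 (adjusted p = 0.657).

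Atf3, a stress-induced factor that pairs with JUN proteins and represses many targets, had no read in any TE cell. It was above 1 RPRT in 1 of 10 Epi cells, at 18.3 RPRT, 4 PrE cells of 13 and 3 ICM cells of 14. These 4 PrE cells were of embryo 16, at 1.16, 47, 3.26 and 160 RPRT, while the 9 PrE cells of embryos 14 and 15 were at 0. In ICM the highest cell was of embryo 8, at 32.8 RPRT, and was the one of this embryo with high Fos. Summed over cells, Atf3 was at least 26-fold lower in TE than in ICM and at least 165-fold lower than in PrE against a floor of 3 counts over the TE cells. Of the 541 ICM counts, 533 came from embryo 8, and without it no bound can be given, nor can one be given without PrE embryo 16, which held all 2714 PrE counts. The test over embryos did not call it (edgeR, adjusted p = 0.291 for TE over ICM, 0.248 without ICM embryos 4, 12 and 13, and 0.204 for TE over PrE).

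Ier2, a small nuclear protein induced with AP-1, was the most widely detected member. It was above 1 RPRT in 3 of 3 TE, 9 of 10 Epi, 8 of 13 PrE and 14 of 14 ICM cells. Its levels were 1.33, 224 and 7.86 RPRT in TE cells of embryos 2, 4 and 5. The lowest, median and highest levels were 0.186, 13.7 and 81.9 RPRT in Epi cells, 0, 2.88 and 14.4 RPRT in PrE cells and 2.26, 21.0 and 89.1 RPRT in ICM cells. The ICM cells of embryos 12 and 13, at 45.8 to 89.1 RPRT, were the highest of their class. The 3 PrE embryos, at 3.0 to 5.19 CPM, lay below both Epi embryos, at 11.8 and 25.2 CPM, and below all 7 ICM embryos, at 7.76 to 73.9 CPM, in comparisons in which 0% of all genes were called. The log2 fold change of PrE over ICM was −3.15 ± 1.32 (SE; edgeR, adjusted p = 0.52), that of Epi over PrE was 2.24 ± 1.45 (adjusted p = 0.751), and neither passed the threshold.

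For TE over ICM the log2 fold change of Ier2 was 1.87 ± 1.04 (SE; edgeR, adjusted p = 0.251), without the TE cell of embryo 4 it was −1.84, and without ICM embryos 4, 12 and 13 it was 2.42 (adjusted p = 0.242). Ier3, an inhibitor of cell death that is induced with the same group, was at most 1.17 RPRT in TE cells. It stood out in single cells elsewhere, at 17 RPRT in 1 Epi cell, 27 and 15.4 RPRT in 2 PrE cells and 82.9 RPRT in 1 ICM cell, while its median was 0 RPRT in Epi, PrE and ICM cells. Its log2 fold change of TE over ICM was −4.42 ± 2.98 (SE; edgeR, adjusted p = 0.332), and −5.22 (adjusted p = 0.25) without ICM embryos 4, 12 and 13.

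**Figure D3:**
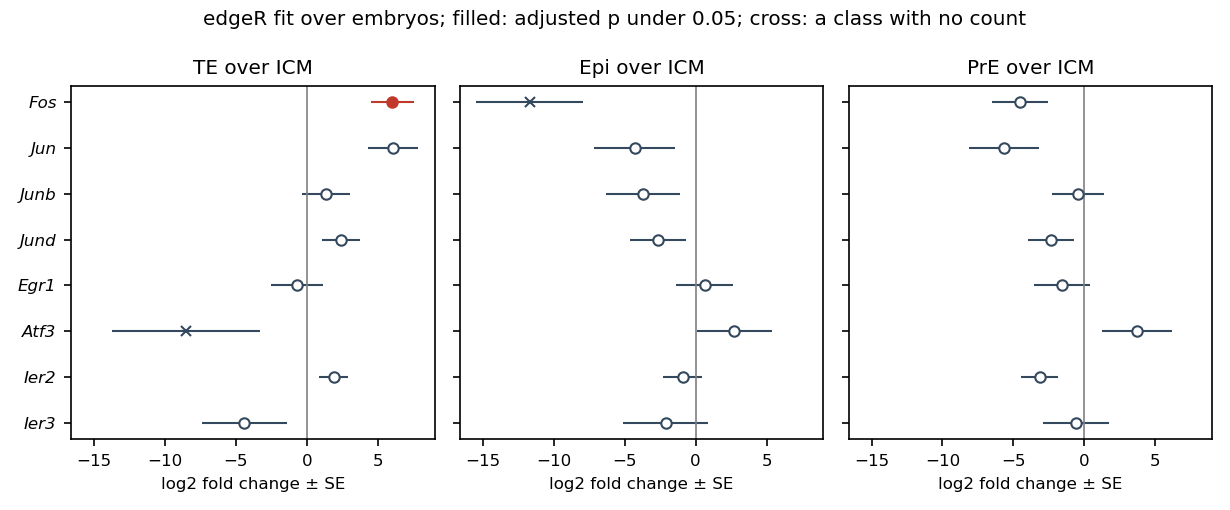
Log2 fold change with its standard error of the 8 tested members for TE over ICM, Epi over ICM and PrE over ICM, from the fit over embryos. Fos in TE over ICM, at 6.02, is the only filled point, and crosses mark fits in which a class held no count (Fos in Epi, Atf3 in TE), whose value is no bound.

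Among the ICM and its E4.0 derivatives, no member passed the threshold. The edgeR test called none of the 8 members in Epi over ICM, where 0.00794% of genes were called, in PrE over ICM, where 0% were called, or in Epi over PrE, where 0% were called. Unadjusted p fell under 0.05 for 1 member in Epi over ICM and for 3 in PrE over ICM, against 916 and 1160 of all 12599 genes, and for none in Epi over PrE, against 965 genes. The members were Fos in Epi over ICM, with at least 643-fold less Fos in Epi over a floor of 3 counts (edgeR, adjusted p = 0.341), and Fos, Jun and Ier2 in PrE over ICM. That bound was 306-fold without ICM embryo 12 and 66.5-fold without Epi embryo 14. For PrE over ICM the log2 fold changes were −4.52 ± 1.96 for Fos (SE; edgeR, adjusted p = 0.524) and −5.68 ± 2.48 for Jun (adjusted p = 0.524). DESeq2 called Fos in Epi over ICM and no member in the other 2 comparisons. Without ICM embryos 4, 12 and 13, edgeR again called no member in either comparison with ICM.

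The members did not move as a block in single cells. The number of members above 1 RPRT had a median of 5 in TE cells, 2 in Epi cells, 2 in PrE cells and 3.5 in ICM cells, and only 7 in the highest cell, the TE cell of embryo 4. That cell held Fos, Jun, Junb, Jund, Egr1, Ier2 and Ier3 above this level, of which Ier3, at 1.17 RPRT, rested on 1 read. Set against the ICM cell of the same embryo, it was at 122 and 0.471 RPRT for Jun, at 224 and 14.4 RPRT for Ier2, at 45 and 5.3 RPRT for Jund, at 14.3 and 2.95 RPRT for Junb and at 10.9 and 10.8 RPRT for Egr1. The TE cell of embryo 2 held 4 members above 1 RPRT, of which Fos and Jund were above 4 RPRT. The others, Junb and Ier2, rested on 4 and 9 reads.

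Over the 14 ICM cells, on log2(RPRT + 1), Jun and Junb had a Pearson r of 0.75 and a Spearman rho of 0.72, Jund and Ier2 had r = 0.60 and rho = 0.59, and Fos and Ier2 had r = 0.60 and rho = 0.62. Egr1 had r = 0.05 and rho = −0.01 with Fos and r = −0.35 with Jun, whereas over the 13 PrE cells Egr1 and Fos had r = 0.66 and rho = 0.76. These values describe cells that share embryos and library depth, and they carry no test.

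In the same ICM cells Fos tended to be higher where trophectoderm markers were higher. The summed level of the 23 markers had r = 0.76 and rho = 0.81 with Fos, r = 0.61 and rho = 0.52 with Jund and r = 0.59 and rho = 0.61 with Ier2, against r = −0.27 and rho = −0.29 with Egr1. Other markers moved with members as well. The summed epiblast and ICM markers had r = 0.72 and rho = 0.70 with Jund, r = 0.55 and rho = 0.44 with Ier2 and r = 0.16 and rho = 0.04 with Fos, and the summed primitive endoderm markers had r = 0.49 and rho = 0.49 with Fos. The 5 cells with the highest marker sums, of embryos 4, 12 and 13, had Fos between 1.8 and 84.1 RPRT, and of the other 9 only the cell of embryo 8 at 33.2 RPRT, with a marker sum of 370 RPRT, had Fos above 1 RPRT. The ICM cell next in marker sum, of embryo 10 at 723 RPRT, had no Fos read. Over the 13 PrE cells, of which 4 held a Fos read, the sum of the 23 markers had r = −0.49 and rho = −0.01 with Fos. The TE cell of embryo 2, with the lowest Fos level of its class, had a marker sum of 12300 RPRT, against 15900 and 14500 RPRT in the TE cells of embryos 4 and 5. The part of these markers in the levels of the members was not tested.

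**Figure D4:**
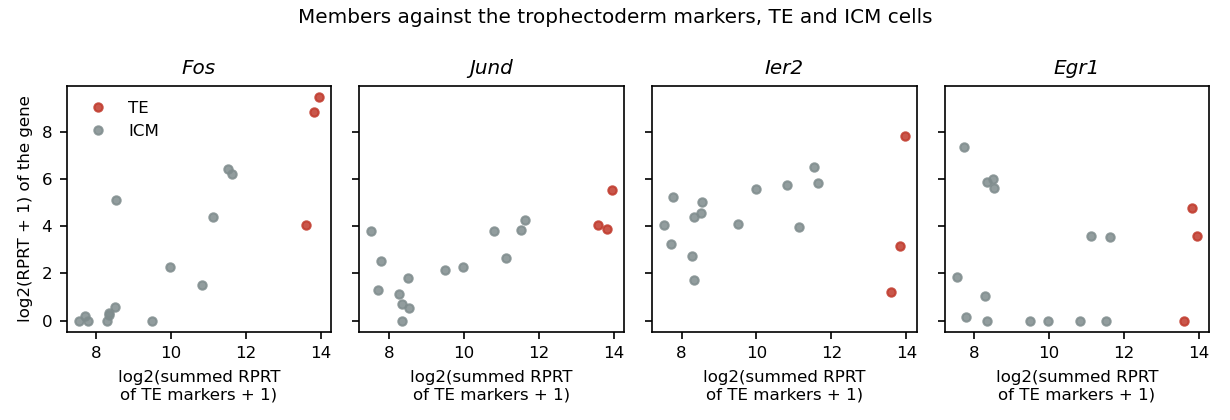
Level of Fos, Jund, Ier2 and Egr1 against the summed level of 23 trophectoderm markers in the 3 TE and 14 ICM cells, both as log2 of RPRT plus 1, with each point a cell. Among ICM cells Fos tends to be higher where the marker sum is higher (r = 0.76), and Egr1 shows no such relation (r = −0.27). Exceptions for Fos include a cell of embryo 8 with a sum of 370 RPRT and Fos at 33.2 RPRT. A cell of embryo 10 with a sum of 723 RPRT had Fos at 0.

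Genes that respond to stress were measured beside the members. The summed level of 24 heat shock genes was 7960, 10400 and 10700 RPRT in the TE cells, with the lowest value in the TE cell with the highest level of Fos, Jun and Ier2. It ranged from 13900 to 24300 RPRT in Epi cells, in which Fos was at 0, from 7080 to 22600 RPRT in PrE cells and from 6650 to 11600 RPRT in ICM cells. Over the 14 ICM cells this sum had r between −0.31 and 0.30 with the members, and r = −0.07 and rho = −0.20 with Fos. Over the 13 PrE cells r lay between −0.33 (Jund) and 0.66 (Jun), and over the 10 Epi cells between −0.49 (Egr1) and 0.22 (Junb). Of the 22 heat shock genes tested, 1 was higher in TE than in ICM and none was lower, beside 2.10% of all genes higher in TE, with a median log2 fold change of 0.07 against −0.70 for all genes. This was Bag3, a partner of HSP70, at 50.7 to 213 RPRT in TE cells and 4.48 to 35.9 RPRT in ICM cells (log2 fold change 3.36 ± 0.89, edgeR, adjusted p = 0.0403). Its level was small beside the summed level, which therefore hardly reflects it. None was called in the other 5 comparisons.

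The summed level of 20 genes of the integrated stress response and DNA damage was 236 to 388 RPRT in TE cells, 224 to 927 RPRT in Epi cells, 146 to 1660 RPRT in PrE cells and 122 to 935 RPRT in ICM cells. Over the 14 ICM cells it had r = 0.44 and rho = 0.44 with Fos, r between 0.36 and 0.46 with Fosb, Jun, Junb, Jund and Ier2, and r between −0.14 and −0.12 with Egr1, Atf3 and Ier3. Over the 13 PrE cells r lay between −0.54 (Junb) and 0.40 (Atf3), and over the 10 Epi cells between −0.77 (Ier2) and 0.24 (Ier3). None of the 17 tested was called in any comparison. The median log2 fold change of TE over ICM was −1.90, or −0.48 with genes that had no count in a class set at their bound, against −0.70 for all genes. Of the list, Asns, which makes asparagine, and Xbp1, a factor of the unfolded protein response, had the highest mean levels. Asns had a median of 18.1 RPRT in TE cells, 260 RPRT in Epi cells, 616 RPRT in PrE cells and 206 RPRT in ICM cells, and Xbp1 had a median of 75.9, 66.5, 158 and 34.7 RPRT in the same order. The part of the stress genes and of handling in the levels of the members was not tested.

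Other immediate early genes were followed as a list of 39, of which 32 were tested. In TE over ICM, 2 were higher and none lower, beside 2.10% of all genes higher in TE, with a median of 0.54, or 0.77 with genes that had no count in a class at their bound, and none was called in the other 5 comparisons. The 2 were Zfp36, which degrades transcripts with AU-rich elements, and Btg1, an anti-proliferative gene. Zfp36 was at 7.69 to 195 RPRT in TE cells and 0 to 18.2 RPRT in ICM cells (log2 fold change 5.60 ± 1.25, edgeR, adjusted p = 0.0225), and Btg1 was at 17.1 to 65.8 RPRT in TE cells and 0.106 to 24.2 RPRT in ICM cells (3.08 ± 0.87, adjusted p = 0.0487).

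Of 21 further partners of AP-1, 13 were tested and 1 was called, beside 2.10% of all genes higher in TE than in ICM. This was Fosl2, which encodes FRA2 of the FOS family and was higher in TE than in ICM (log2 fold change 8.17 ± 2.07, edgeR, adjusted p = 0.0371). Its level stayed low, at 0.13, 1.85 and 4.32 RPRT in the 3 TE cells, and at most 0.422 RPRT in ICM cells. The median of the list was −0.93. Of 25 upstream kinases and factors that act with serum response factor, 24 were tested, with a median of −0.28 in TE over ICM. In that comparison 264 of all 12599 genes were called higher in TE and 269 lower. Elk4 was called higher in TE than in ICM, with a median of 0 RPRT in both classes and 1 TE cell at 29.7 RPRT. Rps6ka3, which encodes the ERK-activated kinase RSK2, had no count in TE cells and was called lower in TE than in Epi, PrE and ICM, where its medians were 0.94, 1.04 and 1.44 RPRT.

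Of 30 genes regulated by AP-1 or used in epithelia, 20 were tested, and 3 were higher in TE than in ICM, beside 2.10% of all genes. These were the keratins Krt8 and Krt18, which also stand among the trophectoderm markers, and the calcium-binding gene S100a11. S100a11 was at 149 to 980 RPRT in TE cells and 0.979 to 139 RPRT in ICM cells (log2 fold change 3.98 ± 0.96, edgeR, adjusted p = 0.0307). The same 3 were also higher in TE than in Epi and than in PrE, beside 0.548% and 0.802% of all genes. The list as a whole did not follow, as its median in TE over ICM was −1.46, or −0.57 with genes that had no count in a class at their bound, against −0.70 for all genes.

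In the same fit, of 23 trophectoderm markers, 8 were higher in TE than in ICM, 6 than in Epi and 9 than in PrE, and none was lower, with Cldn4, Krt8 and Eomes among those called in TE over ICM. Of all 12599 genes tested, 264, 69 and 101 were higher in TE than in ICM, Epi and PrE. Lower in TE were 269, 145 and 190, in the same order. Of 18 epiblast and ICM markers, 4 were lower in TE than in ICM (Esrrb, Tdgf1, Bmp4 and Fgf4), 3 than in Epi and 1 than in PrE. Of 22 primitive endoderm markers, 4 were lower in TE than in ICM (Aqp8, Hnf4a, P4ha2 and Sparc) and 5 than in PrE, among them Srgn and Cubn. Of 23 markers of maternal blood and uterus, 4 were tested and 1, Pecam1, was lower in TE than in ICM. Pecam1 had a median of 15.4 RPRT in ICM, 8.98 RPRT in Epi, 0.643 RPRT in PrE and 0 RPRT in TE cells. It was thus present in most inner cell classes, and its call is not a measure of maternal cells. The summed level of this list was 273 to 350 RPRT in TE cells, with 14 of 18 genes at 0. It was 6.73 to 191 RPRT in Epi cells, 14.5 to 203 RPRT in PrE cells and 59.3 to 212 RPRT in ICM cells. The source of this signal was not tested.

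By likeness over the 40 cells, on log2(CPM + 1), the 5 genes closest to Fos among 11357 were Cebpa (r = 0.85), Gata3 (r = 0.85), Cdx2 (r = 0.84), Slc15a2 (r = 0.83) and Pak6 (r = 0.83). Gata3 and Cdx2 are transcription factors of the trophectoderm. With the mean of each class subtracted, these values were 0.62, 0.56, 0.57, 0.53 and 0.67. The median gene had r = −0.06 before and −0.02 after the subtraction. The 5 closest genes were then Pak6 (r = 0.67), Cebpa (r = 0.62), Fxyd6 (r = 0.58), E130012A19Rik (r = 0.58) and Lama1 (r = 0.58). Only 2 genes, Pak6 and Cebpa, were shared with the search before the subtraction, and Gata3 and Cdx2 were no longer among the closest. Cebpa was at 5.32 to 109 RPRT in TE cells, at 0 in all Epi cells, at most 0.265 RPRT in PrE cells and between 0.243 and 38.3 RPRT in ICM cells. For Jun the 5 closest were Hist1h4f (r = 0.91), Krt7 (r = 0.90), Nwd1 (r = 0.86), Ntf5 (r = 0.86) and Akap5 (r = 0.85). Krt7 was at 33 RPRT in 1 TE cell and at 1.53 and 1.41 RPRT in the others. Cells share class and embryo, so these values are a description.

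Allelic ratios, the share of paternal reads at variants, were given for 7 of the 10 members and only where enough reads covered the variants. The files hold no read number for them, so they carry no interval. Fos had a ratio of 0.973, 0.593 and 0.508 in the TE cells of embryos 2, 4 and 5, so the TE cell with the lowest level was almost fully paternal. In ICM cells it was 0.811 in embryo 4, 0 in the high cell of embryo 8, and 0.316 and 0.485 in those of embryo 12. A PrE cell of embryo 16 had a ratio of 1. Of the 8 cells with a Fos ratio, 5 lay between 0.15 and 0.85.

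Atf3 had a ratio in 4 cells, and each was at or near a single allele. It was 0.988 in the PrE cell at 47 RPRT and 0 in the PrE cell at 160 RPRT, both of embryo 16, 1 in the ICM cell of embryo 8 and 0 in the Epi cell of embryo 17. Ier2 was between 0.15 and 0.85 in 15 of 24 cells, with 4 maternal and 5 paternal cells, and Egr1 in 6 of 11 cells, with 4 maternal and 1 paternal cell. Over all autosomal values, 52.0% lay between 0.15 and 0.85, 24.1% were maternal and 23.9% were paternal.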

How the data were processed

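Reads were cleaned and aligned by the authors with TopHat2 2.1.0 to mm10 genomes of both strains, and the deposited counts were made with HTSeq 0.6.1 as whole reads per gene, with no normalization. The authors amplified polyadenylated RNA from its 3′ end, so most reads lie near transcript ends. RPRT is a signal that the authors normalized to the retrotranscribed length and to the mapped reads. The allelic ratio is a fraction made by the authors from paternal and maternal reads at variants. mm10 is GRCm38, the build of the annotation and RefSeq windows.

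The embryo was the replicate. Reads of all cells of a class within an embryo were added up, giving 15 sums, which were fitted in R 4.3.3 with edgeR 4.0.16 (filterByExpr by class, TMM, quasi-likelihood test, all classes in 1 fit, two-sided), with Benjamini-Hochberg adjustment over 12599 genes and a threshold of 0.05. The standard error is the log2 fold change divided by the square root of F. DESeq2 1.42.0, limma 3.58.1 with pseudocounts of 1, other scalings and filters, subsets of cells and each sum left out in turn were tried as alternatives, and the edgeR fit was tested on simulated data, where it recovered few of the changed genes and most of the largest changes were missed, so a member that missed the threshold is not shown to be unchanged. The common biological coefficient of variation was 1.33. A gene counted as present in a cell above 1 RPRT, a level that few reads could reach. Intervals and floors cover counting error only, since the reads carry no molecular identifiers. Doublets were not called, as each cell was picked by hand. Of 40 cells, 4 had fewer than 70% of reads mapped and were left out in an alternative.

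All 10 members are named. Of each list, up to 4 genes with the lowest p among those called in a comparison are named, or the 2 with the highest level where none was called, and 5 genes per likeness search among tested genes with a count in at least 10 cells. Some genes that meet this rule are not reported here. Genes named beyond this as class markers were chosen after their values were seen. The members and lists were chosen with earlier results of these data known.
The comparisons of TE with Epi and with PrE, the exclusion of ICM embryos 4, 12 and 13, and the bounds with a sum left out were chosen after seeing the data.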

Additional observations from a re-analysis of the deposited data

Results flagged for a closer look

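Among the 7 ICM embryos, 3 of the 9 members with any count had an embryo far above the others, by the gap to the next embryo over the whole range (above 0.568). For normally spread values, about 1 of 20 groups passes this limit by chance. The levels here are skewed and often 0, so that rate does not hold for them. Fosb was at 2.29 CPM in embryo 12, against 0.118 CPM in the next embryo, and came from 1 of its 3 cells, at 17.9 RPRT. Atf3 was at 12.7 CPM in embryo 8, against 0.32 CPM in the next, from a cell at 32.8 RPRT. Ier3 was at 28.3 CPM in embryo 8, against 0.12 CPM in the next, from another cell of that embryo, at 82.9 RPRT. In each case the level belonged to a single cell.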

How the results depend on the processing

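Of 858 values of single members under an alternative, 766 kept their direction and their side of the threshold, 15 lost the call, 20 gained it and 57 changed direction. The causes were not tested. For TE over ICM, where edgeR called 1 member and 533 genes, the number of members called was 3 with DESeq2, 2 with RLE scaling, with no filter on low counts and without ICM embryos 4, 12 and 13, and 0 with total count scaling, with only the compared classes in the fit and with cells of the earlier study only. The number of genes called was 2770 with DESeq2, 1726 with RLE scaling, 333 with limma on RPRT, 309 without those embryos, 179 with only the compared classes and 8 in the earlier study. For TE over Epi, 4 members were called with DESeq2, 2 with only the compared classes and 0 with RLE scaling, and the 214 genes became 2374 with DESeq2, 985 and 958 with limma-voom without and with the replicate block, 711 with limma on CPM, 633 with only the compared classes, 473 with limma on RPRT, 383 with no filter and 19 with RLE scaling. For TE over PrE, 4 members were called with DESeq2 and 2 with limma-voom, with or without the block, or with no filter, and the 291 genes became 2521 with DESeq2, 919 and 924 with limma-voom without and with the block, 549 with only the compared classes and 510 with no filter.

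DESeq2 called 1 member in Epi over ICM. In that comparison the genes called, 1 in edgeR, were 486 with DESeq2, 240 and 239 with limma-voom without and with the block, 133 with limma on CPM, 98 with limma on RPRT, 37 with no filter and 3 with only the compared classes or without ICM embryos 4, 12 and 13. In PrE over ICM the genes called, 0 in edgeR, were 346 with DESeq2, 251 and 242 with limma-voom without and with the block, 31 with limma on RPRT, 26 with no filter, 22 with limma on CPM and 11 without those ICM embryos. In Epi over PrE they were 420 with DESeq2, 239 and 341 with limma-voom without and with the block, 82 with limma on CPM, 69 with limma on RPRT, 67 with only the compared classes and 13 with no filter. With each sum of class and embryo left out in turn, the members called ranged from 0 to 2 in TE over ICM, 0 to 1 in TE over Epi and 0 to 3 in TE over PrE, and were 0 in the other comparisons. The genes called ranged from 159 to 971 in TE over ICM, 0 to 7 in Epi over ICM, 0 to 1 in PrE over ICM, 5 to 394 in TE over Epi and 55 to 540 in TE over PrE, and were 0 in Epi over PrE.

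No member that edgeR called changed direction. For TE over ICM, the log2 fold change of Egr1 was 1.37 with DESeq2, 1.36 with RLE scaling, 0.41 with limma on CPM and 0.56 with limma on RPRT, that of Ier2 was −0.30 and −0.46 with limma on CPM and on RPRT, that of Ier3 was 1.65 with DESeq2, 0.52 and 0.61 with limma-voom without and with the block and 0.07 with limma on RPRT, and that of Atf3 was 0.02 with the block. For TE over Epi, Egr1 was at 0.58 with DESeq2 and with RLE scaling and Ier3 at 0.07 with limma on RPRT, and for TE over PrE, Egr1 was at −1.05 and −1.20 with limma-voom without and with the block. For Epi over ICM, Jun was at 0.45 and Egr1 at −0.11 without ICM embryos 4, 12 and 13, and Ier3 was at 3.28 with DESeq2 and at 1.71 and 1.47 with limma-voom without and with the block. For PrE over ICM, Junb was at 2.11 without those embryos, Egr1 at 0.88 and 1.02 with limma-voom without and with the block, and Ier3 at 4.78 with DESeq2, 2.48 and 2.36 with limma-voom without and with the block, 0.23 with limma on CPM and 0.18 with limma on RPRT. For Epi over PrE, Jund was at 0.07 with total count scaling, 0.06 with limma on CPM and 0.01 with limma on RPRT, and Atf3 at 0.53 and 0.31 with limma-voom without and with the block, 0.98 with limma on CPM and 0.79 with limma on RPRT.

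With these sums left out in turn, the log2 fold changes that changed direction ranged, for TE over ICM, from −1.96 to 1.90 for Junb, −3.14 to 0.29 for Egr1, −1.84 to 2.48 for Ier2 and −5.49 to 1.59 for Ier3. For Epi over ICM they ranged from −1.28 to 1.53 for Egr1, −8.59 to 7.56 for Atf3 and −5.17 to 3.89 for Ier3. For PrE over ICM they ranged from −2.58 to 0.08 for Junb, −8.46 to 8.55 for Atf3 and −1.06 to 5.42 for Ier3, and for Epi over PrE from −1.56 to 0.34 for Jund and −12.31 to 11.19 for Atf3. For TE over Epi they ranged from −3.78 to 0.57 for Egr1, −0.92 to 3.43 for Ier2 and −3.41 to 0.74 for Ier3, and for TE over PrE from −1.51 to 3.92 for Junb and −1.55 to 1.88 for Egr1. Where this left a class with 1 embryo, that embryo was assumed to vary like the other classes. The replicate block, the embryo that TE and ICM (embryo 4) and PrE and Epi (embryo 14) share, had an estimated correlation of 0.187. At this depth a gene with no read in TE cells can be placed only under 0.156 CPM.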

Other observations

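For the mean log2 level of the 10 members over the 40 cells, the closest genes were Fam101b (r = 0.70), Slc13a2 (r = 0.69), Pak6 (r = 0.69), Tmem45b (r = 0.68) and Btbd16 (r = 0.67). Fam101b was at 74.5 to 107 RPRT in TE cells, at most 2.92 RPRT in Epi cells, at most 12.2 RPRT in PrE cells and between 0.242 and 42.7 RPRT in ICM cells. Slc13a2 was at 23.1 to 138 RPRT in TE cells and at most 33.2 RPRT in ICM cells. With the mean of each class subtracted, Tmem45b (r = 0.64), Polr2h (r = 0.60), Dnmt1 (r = 0.58), Tpst2 (r = 0.58) and Rundc3a (r = 0.57) came first, so that only Tmem45b was shared. Dnmt1, the maintenance DNA methyltransferase, was at 1.12 to 8.6 RPRT in TE cells, 62.7 to 161 RPRT in Epi cells, 25.2 to 121 RPRT in PrE cells and 19.9 to 166 RPRT in ICM cells. These values rest on cells that share class and embryo, and carry no test.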
